A study of Homo sapiens with 24 samples.

Results

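The clustered protocadherin genes lie on the long arm of human chromosome 5, and the window examined here was chr5:140160001-140895000 of the hg19 build, 735 kb that take in the PCDHA, PCDHB and PCDHG clusters. Members were all called regions that overlapped this window in the 18 deposited peak lists, 293 of the 1482626 regions on chromosomes 1 to 22 and X. H3K27me3 gave 152 of them, H3K4me1 70, H3K27ac 69, UTX 1 and MLL4 1. The choice was by position and used no measured value. The cells were UMUC1, an established human bladder cancer line, carrying the vector pSIN-puro in 1 of 3 forms: empty (EV), with wild-type UTX (WT), or with UTX bearing the substitutions H1146A and E1148A (HEAA). All 3 lines share the UMUC1 background and the vector, were grown alike and were fixed with paraformaldehyde 3 days after plating. The labels do not say whether a line is a clone or a pool. H3K27ac was profiled in 2 libraries per line, and UTX, MLL4, H3K27me3 and H3K4me1 in 1 library per line, so differences in those 4 have no replicate check. UTX and MLL4 chromatin was cut with micrococcal nuclease before sonication, and histone chromatin was sonicated.

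Clustered protocadherins are cadherin-like adhesion proteins best known from neurons, where each cell uses its own combination of them as a surface identity. In the PCDHA and PCDHG clusters each variable exon has its own promoter and is spliced to exons shared by the cluster, while PCDHB genes stand alone. UTX (KDM6A) is a demethylase that removes H3K27me3, the mark of Polycomb repression, and H1146A with E1148A is used as its catalytically inactive form. UTX works in a complex with MLL4 (KMT2D), which places H3K4me1 at enhancers, where H3K27ac accompanies activity.

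In the RefSeq gene table, which is on GRCh38.p14 and was used for names and order only, the window's clusters hold 53 protein-coding protocadherin genes. There are 15 PCDHA genes (PCDHA1 to PCDHAC2), then 16 PCDHB genes (PCDHB1 to PCDHB15), then 22 PCDHG genes (PCDHGA1 to PCDHGC5). SLC25A2, a mitochondrial carrier, and TAF7, a subunit of the general transcription factor TFIID, are the other 2 protein-coding genes in the run. The regions are in hg19 and the table is not, so no region below is assigned to a gene, exon, intron or UTR.

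Clustered protocadherin promoters are known for a conserved element with the core CGCT. The RefSeq promoter table held 47 of the 53 genes, and the 250 bases before each start were searched on both strands for CGCTG, the core with 1 further base, a form chosen after the sequences were seen. CGCT itself was found on either strand in 12 of 13 PCDHA, 13 of 14 PCDHB and 20 of 20 PCDHG genes, against 67.2% of all genes. CGCTG was present in 9 of 13 PCDHA, 11 of 14 PCDHB and 20 of 20 PCDHG genes, against 44.8% of all 27305 genes in the table. The 4 bases most often found before it differed by cluster, and each cluster's form, taken from its own promoters, was then searched in all genes. ATGTCGCTG was found in 6 PCDHA genes and in 0.0842% of all genes, GTGGCGCTG in 11 PCDHB genes and 0.564%, and GCGCCGCTG in 10 PCDHG genes and 1.20%, each motif containing CGCTG and searched on both strands. The following 9 stretches of 36 bases, 3 from each cluster, show the shared core and its flanks, and PCDHGC3 is shown as an example without its cluster's longer form. They are RefSeq sequences from GRCh38.p14, upstream of the gene start, read 5′ to 3′, with CGCTG in capitals, and their coordinates must not be set against those of the regions.
PCDHA1 (chr5:140786084-140786119, plus strand): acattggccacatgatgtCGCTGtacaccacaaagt
PCDHA6 (chr5:140827895-140827930, plus strand): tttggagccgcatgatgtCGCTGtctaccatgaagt
PCDHA8 (chr5:140841128-140841163, plus strand): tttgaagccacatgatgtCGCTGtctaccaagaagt
PCDHB4 (chr5:141121721-141121756, plus strand): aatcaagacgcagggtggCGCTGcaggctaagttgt
PCDHB7 (chr5:141172564-141172599, plus strand): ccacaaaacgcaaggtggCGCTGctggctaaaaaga
PCDHB16 (chr5:141182308-141182343, plus strand): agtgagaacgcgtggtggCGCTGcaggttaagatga
PCDHGA1 (chr5:141330401-141330436, plus strand): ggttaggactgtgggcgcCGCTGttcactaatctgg
PCDHGA10 (chr5:141412929-141412964, plus strand): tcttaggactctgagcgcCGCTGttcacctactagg
PCDHGC3 (chr5:141475878-141475913, plus strand): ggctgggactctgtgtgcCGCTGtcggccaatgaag
The capitals begin 38 bases before the start of PCDHA1, 47 before PCDHA6 and 41 before PCDHA8. In the PCDHB genes shown they begin 79 bases before the start of PCDHB4, 62 before PCDHB7 and 61 before PCDHB16. Of the PCDHG genes shown, PCDHGA1 has them 95 bases before its start, PCDHGA10 40 and PCDHGC3 70. A match is a description of the sequence and shows no binding in these cells.

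The lists differed in size across the whole genome, which bears on every value below. The H3K27me3 lists held 231795 regions over 239 Mb in EV, 199801 over 168 Mb in WT and 247366 over 251 Mb in HEAA. H3K4me1 lists covered 157 to 186 Mb and H3K27ac lists 48.3 to 110 Mb, with the replicate 2 list shorter than replicate 1 in each line. The UTX list of EV, the line without added UTX, had 31 peaks, against 2565 for WT and 2854 for HEAA. Read depth was not given in the sources used here.

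H3K27me3 was called in small, low regions in the lower part of the window and almost nowhere else. It covered 32.6 kb (4.44% of the window, 49 regions) in EV, 23.9 kb (3.26%, 49 regions) in WT and 33.4 kb (4.54%, 54 regions) in HEAA. WT had the least, and EV and HEAA were close to each other. The ratio of WT to EV was 0.734 in the window and 0.704 over the whole lists, that of HEAA to EV 1.02 and 1.05, and that of WT to HEAA 0.717 and 0.670. With all regions kept, the window's ratios were thus close to those of the whole lists, and no test was possible with 1 library per line. The EV and HEAA lists were also reduced to their strongest regions, at the genome-wide bases of the WT list, the shortest. The ratio of WT to EV was then 1.24, the opposite direction. The WT list was not cut, so all its regions, weak ones included, were set against the strongest of EV. When only regions with −log10 q of at least 2 were kept, it was 0.124. That value rests on 2.10 kb in 6 WT regions and 16.9 kb in 17 EV regions. The whole lists at that cut covered 73.6 Mb in WT and 148 Mb in EV, so the window's ratio lay below theirs.

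Its regions had folds close to those of their own lists. Median fold over background, the authors' value per region, was 2.40 for EV, 2.53 for WT and 2.27 for HEAA, against list medians of 2.44, 2.59 and 2.35. The highest folds were 3.32, 3.47 and 2.91, above 98.2%, 98.8% and 94.4% of the regions in those lists. The highest −log10 q was 3.86, 3.56 and 3.16. None of the 152 regions reached 5, a level passed by 0.700%, 0.148% and 0.518% of regions in the whole EV, WT and HEAA lists, so the absence is near the level of the lists themselves. A −log10 q of at least 2 was reached by 17 of 49 EV regions (34.7%, against 40.0% of the list), 6 of 49 WT regions (12.2%, against 27.6%) and 17 of 54 HEAA regions (31.5%, against 40.0%). Median width was 460, 388 and 495.5 bases, below the list medians of 613, 546 and 622. The strongest EV region was chr5:140452110-140452503, at a fold of 3.32. It was followed by the 2750-base region chr5:140306834-140309583 at 3.25, and then by folds of 3.02, 2.94 and 2.80. In WT the strongest was chr5:140508467-140508818 at a fold of 3.47, ahead of 3.37, 3.14, 3.11 and 3.03. In HEAA it was chr5:140505546-140506680 at 2.91, ahead of 2.89, 2.79, 2.71 and 2.71. The WT and HEAA leaders lay in the same bin, and the EV leader lay outside it.

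The mark was unevenly placed along the window. Divided into 37 bins of 20 kb (the last of 15 kb), H3K27me3 lay in bins 3 to 23 except for 2 short regions. EV regions ran from base 140212138 to 140601786, WT regions from 140218077 to 140549105 and HEAA regions from 140226305 to 140557024. From bin 24 to bin 37, a stretch of 275 kb, EV had none, WT had 338 bases and HEAA 278 bases. Coverage of bins 1 to 23 was 7.09% in EV, 5.13% in WT and 7.20% in HEAA, against 0%, 0.123% and 0.101% of bins 24 to 37, a division chosen after the bins were seen. The longest run of bins without H3K27me3 in any line was 6 bins, chr5:140620001-140740000. In all, 16 bins had none in any line, 13 had some in all 3 lines, 2 in 2 lines and 6 in 1 line. Given the order of the genes, the marked part is at the PCDHA end of the window and the unmarked part at the PCDHG end, and the border was not placed on a gene.

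**Figure D1:**
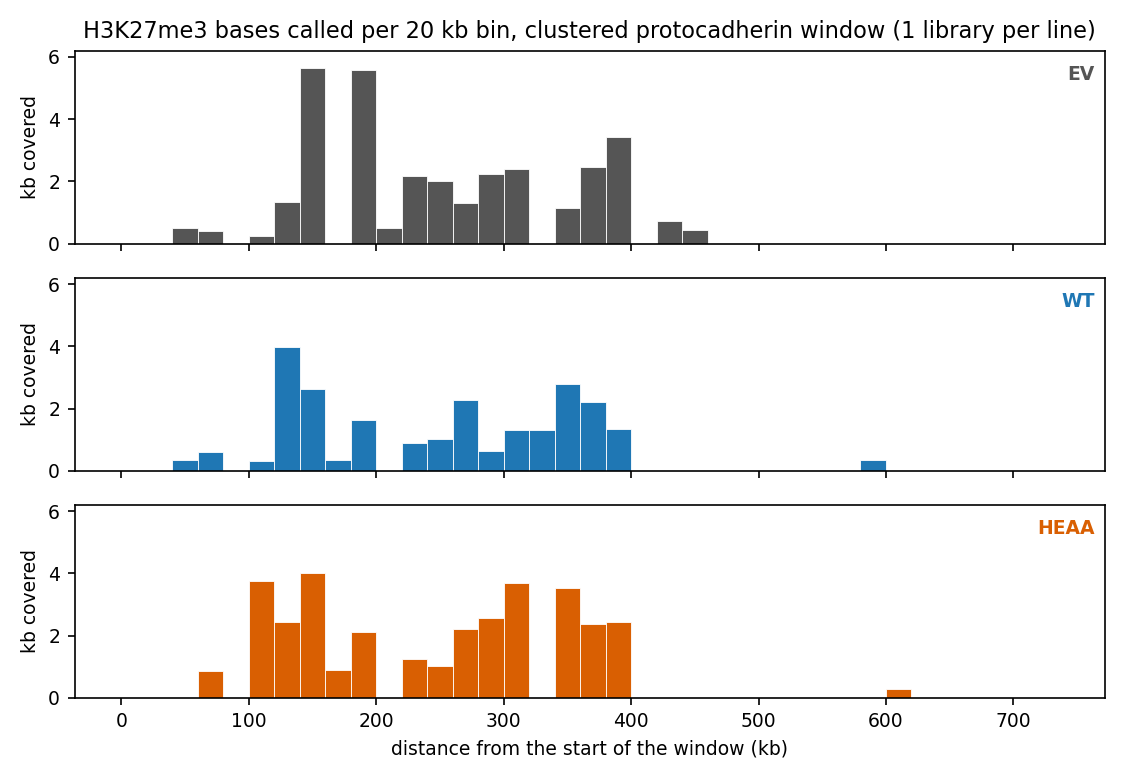
Bars give the kb of each 20 kb bin inside called H3K27me3 regions (y axis) against distance from the start of the window in kb (x axis), 1 panel per line with 1 library each. The 2 tallest EV bars, 5.65 and 5.58 kb, are lower in WT (2.61 and 1.63 kb) and HEAA (4.00 and 2.12 kb), and beyond 460 kb only 1 short bar remains in WT and 1 in HEAA.

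Among single bins, the differences between lines went both ways. Bin 8 (chr5:140300001-140320000) held 5.65 kb in EV, 2.61 kb in WT and 4.00 kb in HEAA. Bin 10 (chr5:140340001-140360000) held 5.58, 1.63 and 2.12 kb. These were the fullest EV bins, and WT was the lowest line in both. Bin 20 held 3.44, 1.33 and 2.43 kb, bin 19 held 2.45, 2.20 and 2.38 kb, and bin 16 held 2.40, 1.33 and 3.68 kb in the same order. Of these 5 fullest EV bins, HEAA exceeded EV in bin 16 alone. In the other direction, bin 7 held 1.35 kb in EV, 3.97 kb in WT and 2.43 kb in HEAA. Bin 18 held 1.14 kb in EV, 2.79 kb in WT and 3.53 kb in HEAA, so both lines with added UTX had more there. Bin 6 stood out in HEAA, with 3.76 kb against 0.255 kb in EV and 0.314 kb in WT. Bin 15 held 2.23 kb in EV, 0.63 kb in WT and 2.56 kb in HEAA.

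Bins with at least 2 kb in either line were compared at a fold of 2. WT was lower than EV in 5 of 11 such bins and higher in 2, where 34.8% of all bins genome-wide were lower and 6.18% higher. HEAA was lower than EV in 1 of 12 and higher in 2, against 14% and 17.5% genome-wide. WT was lower than HEAA in 3 of 10 and higher in 0, against 31.3% and 0.921%. The bins are few, and nothing particular to the window is read from these counts. The number of bins lower in WT than in EV was 2 of 7 when the bins were shifted by 10 kb and 1 of 7 with equal-base lists.

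Which bases were called was poorly shared. The 3 lines together covered 68.3 kb, of which 2.74 kb (4.01%) were called in all 3, 16.1 kb in 2 and 49.5 kb (72.4%) in 1. EV and WT shared 7.01 kb, which is 21.5% of the EV bases and 29.3% of the WT bases, against 45.2% and 64.2% for the whole lists. EV and HEAA shared 10.7 kb, 32.8% and 32.1% of their bases, against 59.5% and 56.7%. WT and HEAA shared 6.64 kb, 27.7% and 19.9%, against 70.8% and 47.5%. Sharing was therefore lower inside the window than over the whole lists in all 3 pairs, where the regions are also narrower than the lists' median. Merging overlapping regions gave 92 sites, 18 of them in all 3 lines, 20 in EV alone, 13 in WT alone and 21 in HEAA alone. The same division over all sites genome-wide is not given here. By bin the lines were more alike, with Spearman's rho across the 37 bins of 0.78 for EV and WT, 0.78 for EV and HEAA and 0.84 for WT and HEAA. That rho is a description across bins, which share their library and the empty part of the window.

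**Figure D2:**
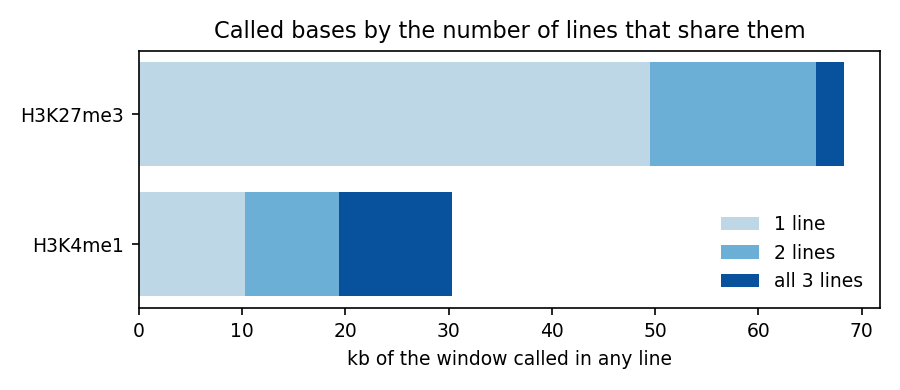
Stacked bars give the kb of the window called in 1, 2 or all 3 lines (x axis) for H3K27me3 and H3K4me1, with 1 library per line. Of 68.3 kb of H3K27me3, 2.74 kb is common to all lines, and of 30.3 kb of H3K4me1, 10.9 kb is.

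H3K4me1 covered fewer bases than H3K27me3 and had higher folds at its leading regions. The lines shared more of its bases. The rank order of their bin totals was less alike, while in each pair of lines fewer bins with at least 2 kb differed at a fold of 2. It covered 18.6 kb (2.52%, 21 regions) in EV, 22.7 kb (3.09%, 22 regions) in WT and 20.1 kb (2.73%, 27 regions) in HEAA. The ratio of WT to EV was 1.22 in the window and 1.14 over the whole lists, that of HEAA to EV 1.08 and 1.18, and that of WT to HEAA 1.13 and 0.959. Like those for H3K27me3, these ratios come from 1 library per line and were not tested. At a −log10 q of at least 5 the ratio of WT to EV was 0.918 and that of HEAA to EV 0.846, and HEAA to EV was also below 1 with equal-base lists (0.863). All 3 lines together covered 30.3 kb, of which 10.9 kb (36.0%) were called in all 3 and 10.3 kb (34.0%) in 1. EV and WT shared 73.4% of the EV bases and 60.0% of the WT bases, where the whole lists shared 76.7% and 67.5%. EV and HEAA shared 67.0% and 61.9% of their bases, against 79.7% and 67.3%, and WT and HEAA 69.9% and 79.1%, against 79.1% and 75.9%. HEAA bases shared with WT were thus the exception, with a larger share inside the window than over the list. Across the 37 bins, Spearman's rho was 0.47 for EV and WT, 0.61 for EV and HEAA and 0.77 for WT and HEAA, each lower than for H3K27me3. Of 34 merged sites, 10 were in all 3 lines, 6 in WT and HEAA without EV, 5 in EV alone, 5 in HEAA alone and 2 in WT alone. The EV list was the shortest of the mark, and the same division over all sites genome-wide is not given here. Nothing particular to the window is read from these site counts.

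The strongest H3K4me1 lay at the upper edge of the window and in bin 12. The edge region was chr5:140891796-140897186 in EV, at a fold of 5.24, above 99.2% of that list. Its folds were 4.58 in WT and 4.70 in HEAA, so it was called in all lines, and it runs past the window's end. The other leading place was chr5:140381752-140385024, at a fold of 4.11 in EV, which was called as 2 regions in WT (the higher 4.85) and in HEAA (4.60). Next to it, chr5:140367418-140369742 had a fold of 3.61 in EV, and the merged site there 3.22 in WT and 3.28 in HEAA. Among places without H3K4me1 in EV, chr5:140498204-140499623 had a fold of 3.81 in WT and 2.75 in HEAA. The other 5 sites of that pattern had folds of 2.32 to 3.17. By bin, bin 12 held 3.80 kb in EV, 3.45 in WT and 3.17 in HEAA. Bin 35 held 3.64, 5.01 and 2.91 kb in that order, and bin 37 held 3.21, 3.35 and 3.36 kb. Bin 11 held 2.33, 3.42 and 4.14 kb, and bin 28 held 1.24 kb in EV, none in WT and 0.639 kb in HEAA. WT also exceeded EV in bin 17, with 1.42 kb against none, and in bin 9, with 2.13 against 0.896 kb. HEAA held 0.873 kb in bin 17 and, in bin 20, 0.645 kb where EV and WT had none. WT held 2.11 kb more than HEAA in bin 35, and 0.71 kb against none in bin 34. At a fold of 2, WT was higher than EV in 1 of 5 bins (bin 9) and lower in 0, against 12.4% and 3.21% of all bins. HEAA was higher than EV in 0 of 4 and lower in 0, against 12.7% and 2.05%. WT was higher than HEAA in 0 of 5 and lower in 0, against 1.62% and 2.44%.

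**Figure D3:**
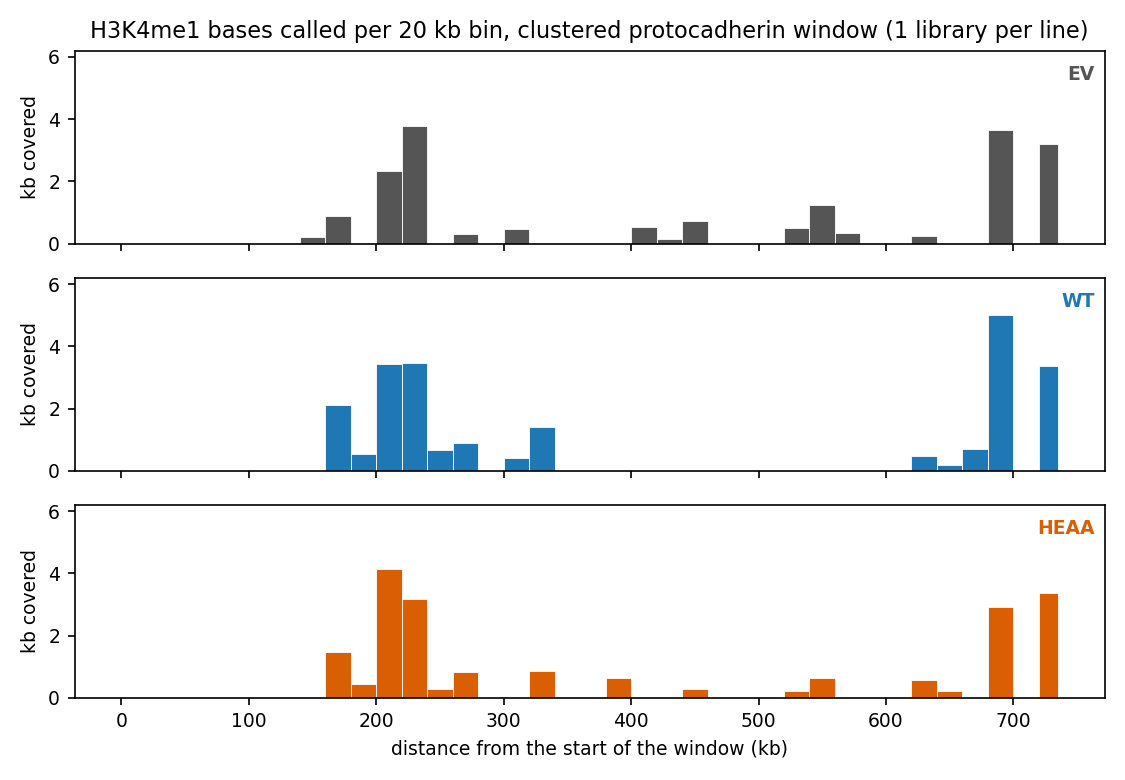
Bars give the kb of each 20 kb bin inside called H3K4me1 regions (y axis) against distance from the start of the window in kb (x axis), 1 panel per line with 1 library each. In all 3 panels the tall bars are bins 11, 12, 35 and 37, with 3.21 to 3.36 kb in bin 37.

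H3K4me1 and H3K27me3 hardly met. EV had 379 bases in both marks, WT 13 and HEAA 265, from 1 region of each mark per line. Across bins, Spearman's rho of the marks was −0.04 in EV, 0.09 in WT and −0.08 in HEAA. H3K27ac overlapped H3K27me3 of its own line in 118 bases in EV replicate 1 and in none in the other 5 libraries. H3K27ac overlapped H3K4me1 more, in 43.0% to 64.9% of its bases by library, against 63.2% to 72.2% over the whole lists.

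Mean H3K27ac coverage in kb was similar between lines. In kb the 2 replicates lay far apart in WT and HEAA and close together in EV, but not relative to the size of their lists. H3K27ac covered 9.99 and 11.2 kb in the EV libraries, 12.9 and 6.62 kb in the WT libraries, and 14.3 and 5.74 kb in the HEAA libraries. Replicate 1 of WT and HEAA lay above both EV libraries and replicate 2 below both, so the groups overlapped. The whole lists differed too, with 88.1 and 71.6 Mb in EV, 96.0 and 55.3 Mb in WT, and 110 and 48.3 Mb in HEAA. Per Mb of its own list, the window held 113 and 156 bases in EV, 134 and 120 in WT, and 129 and 119 in HEAA. On that scale the EV replicates lay furthest apart. The 4 libraries with added UTX averaged 9.87 ± 4.32 kb (SD, n = 4) and the EV libraries 10.6 ± 0.861 kb (SD, n = 2). The difference was −0.727 kb, with p = 0.8 in a two-sided exact permutation test over 15 splits, whose smallest possible p is 0.0667. WT averaged 9.74 ± 4.42 kb and HEAA 10.0 ± 6.03 kb (SD, n = 2 each). WT minus EV was −0.855 kb, HEAA minus EV −0.600 kb and WT minus HEAA −0.255 kb, each with an exact permutation p of 1, where 2 against 2 cannot go below 0.333. Over the 4 tests, Benjamini-Hochberg adjusted p from the same permutations was 1. Within replicate 1 the added-UTX mean was 3.57 kb above EV, and within replicate 2 it was 5.03 kb below. WT minus EV was 2.88 kb in replicate 1 and −4.59 kb in replicate 2, and HEAA minus EV 4.27 and −5.47 kb. The labels do not say whether the libraries come from separate cultures, so these p-values measure the spread between libraries, which may be technical.

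Merging the 6 lists gave 17 H3K27ac sites, numbered along the chromosome. Only 4 were called in all 6 libraries. Site 11 (chr5:140699613-140701073) was the strongest, with folds of 8.85 and 16.3 in EV, 8.14 and 10.3 in WT and 8.79 and 10.3 in HEAA. EV replicate 2 was the highest there and the other 5 libraries lay close together. Site 17 (chr5:140892719-140896665, which runs past the window's end) had folds of 6.86 and 6.77 in EV, 8.39 and 8.75 in WT and 8.19 and 6.88 in HEAA. Here all 4 libraries with added UTX were above both EV libraries, HEAA replicate 2 by a small margin (6.88 against 6.86). Both WT folds were also above both HEAA folds. Site 5 (chr5:140380816-140384988) had folds of 6.46 and 8.33 in EV, 7.98 and 7.35 in WT and 6.75 and 7.28 in HEAA. It was the widest site. Site 16 (chr5:140854975-140856432) had folds of 5.61 and 5.17 in EV, 6.51 and 7.28 in WT and 7.21 and 5.28 in HEAA. At site 11 the folds of every pair of lines overlapped. At site 5 EV overlapped both other lines, and both WT folds were above both HEAA folds, by a small margin (7.35 against 7.28). At site 16 both WT folds were above both EV folds, and HEAA overlapped both lines. How often folds separate between lines over all H3K27ac regions was not computed, and nothing particular to these sites is read from the separations. Sites 5 and 17 also carried the strongest H3K4me1 of the window in all 3 lines, while site 11 touched H3K4me1 in EV (212 bases) and HEAA (2 bases) and not in WT.

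The other 13 sites were weaker and called in fewer libraries. Sites 7 and 15 were called in 5 libraries, sites 10 and 12 in 4, and the remaining 9 in 1 to 3. Site 7 (chr5:140464224-140465014) had folds of 3.77 and 5.50 in EV, 7.36 and 3.59 in WT and 4.35 in HEAA replicate 1, and it was the only merged site that touched H3K27me3 (118 bases of EV H3K27me3, 220 of HEAA). Site 15 (chr5:140792549-140793213) had folds of 3.40 and 3.79 in EV, 5.05 in WT replicate 1 and 4.69 and 4.09 in HEAA. Mean folds of the other 11 sites, over the libraries with a call, were 2.52 to 5.02. No site was called in all 4 libraries with added UTX and in no EV library, nor the reverse. By a like rule, 3 sites were called in replicate 1 of all 3 lines and in no replicate 2 library, and none the reverse. By a looser rule, with any library enough, 7 sites were called only in replicate 1 libraries and 1 only in a replicate 2 library. By that looser rule, sites 2, 3, 6 and 13 were called only in libraries with added UTX, and site 14 only in EV. The shares over all H3K27ac sites genome-wide are not given here, and replicate 2 lists were shorter in each line. Replicate 2 of WT and of HEAA had 7 regions each, against 14 and 16 in replicate 1. Of the 37 bins, 23 had no H3K27ac in any library and 5 had some in all 6. No bin of 2 with at least 2 kb had both EV libraries above the other 4, or both below, where 6.72% and 2.82% of bins genome-wide did.

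**Figure D4:**
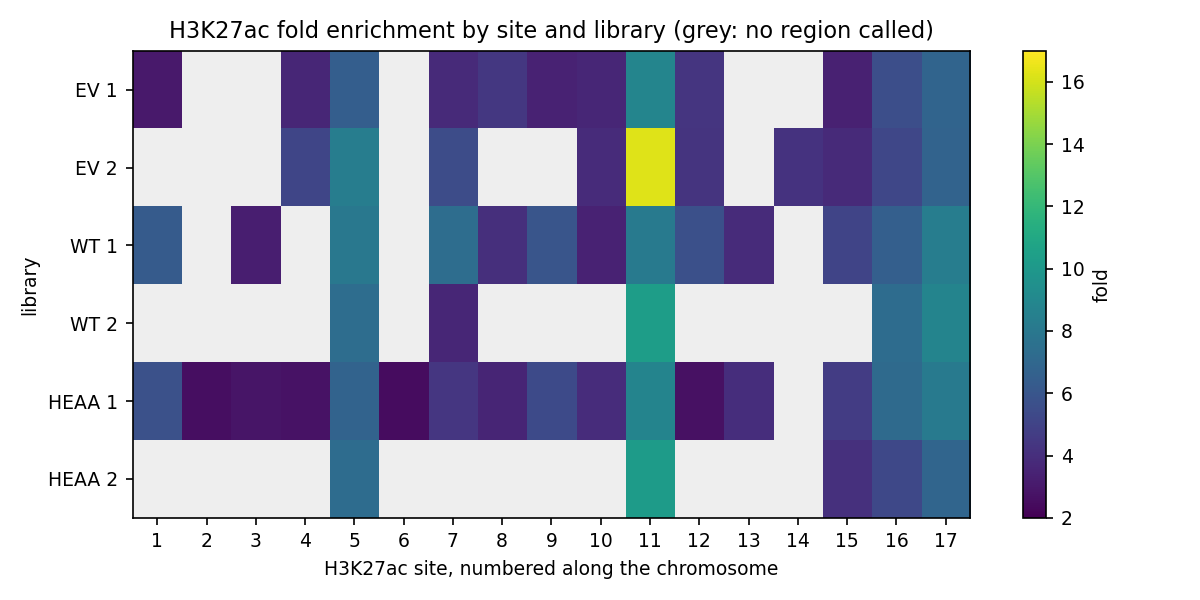
Colour gives the authors' fold enrichment of H3K27ac at each of 17 merged sites (x axis, in chromosome order) in each of the 6 libraries (y axis), with grey where no region was called. Sites 5, 11, 16 and 17 are coloured in all rows, and the rows WT 2 and HEAA 2 are grey at most other sites.

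UTX and MLL4 were each called once in the window, at the same place and in HEAA alone. The UTX peak was chr5:140893963-140894250, with a fold of 5.07 and −log10 q of 5.45, above 44.3% of that line's peaks. The MLL4 peak was chr5:140893979-140894144, with a fold of 7.87 and −log10 q of 8.53, above 80.4% of its list. All 166 bases of the MLL4 peak lay inside the UTX peak. Both lay inside H3K27ac site 17 and the leading H3K4me1 region, which were called in all 3 lines, and no H3K27me3 was called there in any line. EV and WT had no UTX or MLL4 peak in the window, and this difference between lines was not tested. Outside the window, the nearest MLL4 peaks below it lay 54.1 to 54.2 kb away in the 3 lines, at chr5:140105728-140105901 in EV, and carried no H3K27ac. Above it, WT had its nearest UTX peak at chr5:141093565-141093808, 199 kb away, where HEAA had its nearest MLL4 peak (chr5:141093577-141093813). That place carried H3K27ac in all 6 libraries, with 5.29 as the lowest fold. The nearest UTX peak above the window in HEAA lay 334 kb away and the nearest MLL4 peak in WT 701 kb away. The nearest UTX peak below it lay 521 kb away in HEAA and 2902 kb in WT. EV, with 31 UTX and 133 MLL4 peaks in all, had its nearest UTX peak 47147 kb below, none above, and its nearest MLL4 peak above at 36656 kb.

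Set beside its surroundings, the protocadherin window held a smaller share of H3K4me1 and H3K27ac in every list, and its H3K27me3 share lay between those of the flanks. The stretches of equal length before and after it held 501 and 583 regions, against 293. H3K4me1 covered 11.3% to 15.2% of those flanks and 2.52% to 3.09% of the window. H3K27ac covered 5.30% to 9.33% of the flanks and 0.781% to 1.94% of the window, with the window the lowest in all 6 libraries. H3K27me3 covered 4.95%, 3.60% and 4.89% of the lower flank in EV, WT and HEAA and 4.07%, 1.01% and 1.59% of the upper flank. Against 3842 tiles of 735 kb over the genome the window was ordinary. Its H3K27me3 share exceeded that of 44.1%, 51.4% and 44.6% of tiles in EV, WT and HEAA, its H3K4me1 share 34.1% to 38.5% and its H3K27ac share 41.4% to 52.0%. These are positions among tiles and not tests.

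**Figure D5:**
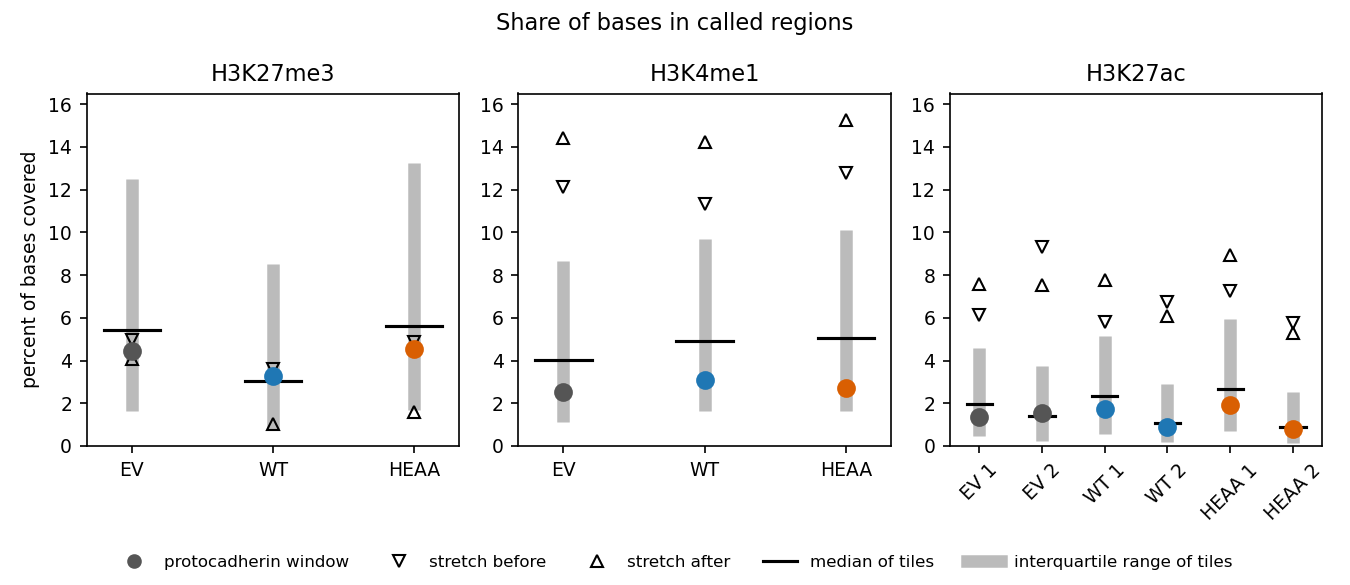
Filled circles give the percent of the window inside called regions (y axis) for each line, or each H3K27ac library (x axis), and open triangles the flanks of 735 kb before and after. Black lines and grey bars give the median and interquartile range of 3842 genome tiles, and in H3K4me1 and H3K27ac the triangles lie well above the circles.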

How the data were processed

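ChIP-seq peak lists were analysed as deposited, 18 lists of 24 samples. The other 6 samples are inputs and were not analysed here. The authors called regions with MACS2 against hg19 (also given as GRCh37), per the submitters' processing notes, with no version given in the sources used here. Per region, the authors' deposited columns hold a score, the fold (ratio) over background, and −log10 p and −log10 q. UTX and MLL4 lists are narrow peaks, histone lists broad regions. List names of UTX and MLL4 mention merging, with what was merged not given in the sources used here. Unequal depth and list length change how many bases are called.

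Regions on chromosomes 1 to 22 and X were kept (776 of 1483402 were left out), cut at the window's ends for base counts, merged per list and counted in 20 kb bins, with 2 kb and a fold of 2 as limits. H3K27ac totals were compared by exact permutation. Regions named are all UTX and MLL4 peaks of the window and the nearest outside it, all H3K27ac sites in 6 libraries plus the strongest others, and the 5 strongest regions and 5 fullest or most different bins of the other marks. Members and lists were chosen with earlier results of these data known. Python 3.11.15, NumPy 2.4.6, pandas 2.3.3, SciPy 1.17.1 and Matplotlib 3.10.9 were used, and base counts and calls were tested on simulated data.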

Additional observations from a re-analysis of the deposited data

How the results depend on the processing

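Limits come first from 1 library per line for H3K27me3 and H3K4me1, and from unknown read depth. H3K27me3 ratios depended on how the lists were matched. Equal-base lists keep a mark's shortest list whole and cut the others to their strongest regions at its bases. With them, WT to EV was 1.24, HEAA to EV 0.757 and WT to HEAA 1.64, with the WT list left whole. Divided by the genome-wide ratio they were 1.04, 0.974 and 1.07. At a −log10 q of at least 2 they were 0.124, 0.629 and 0.197, and at 5 no region was left in the window, so no value was obtained. Widening the window by 50 kb gave 0.985 for HEAA to EV. The count of H3K27me3 bins lower in WT than in EV was 5 of 11 compared. It became 1 of 7 with equal-base lists, 1 of 3 with 50 kb bins and 2 of 7 with bins shifted by 10 kb. At a fold of 3 it was 2 of 11, and with no minimum of bases 8 of 20. It was 4 of 4 at a −log10 q of at least 2, 5 of 15 with 10 kb bins and 7 of 11 at a fold of 1.5. Genome-wide shares under these settings are not given here. For H3K4me1, WT to EV was 0.918 at a −log10 q of at least 5, and HEAA to EV 0.846 there, 0.863 with equal-base lists and 0.913 divided by the genome-wide ratio. Among the other bin counts, 80 of 121 recomputed values stayed within 1.5 times the value given and 41 did not. Many of the 80 are 0 set against 0, among them all 16 H3K27ac counts, so they do not show stability. For H3K27me3, with the bins lower in WT than in EV included, 22 recomputed counts stayed within that limit and 32 did not.

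None of the exact permutation tests of H3K27ac could reach a threshold of 0.05: the smallest exact p is 0.0667 for 4 libraries against 2 and 0.333 for 2 against 2, and the blocked and leave-one-out forms have fewer splits. Their p-values therefore say nothing about stability. The sign of the difference turned under several alternatives. With equal-base lists, added UTX minus EV was 1.27 kb, WT minus EV 1.125 kb and HEAA minus EV 1.41 kb, and with the widened window 1.36, 1.11 and 1.61 kb. WT minus HEAA was 0.349 kb at a −log10 q of 2, 0.948 kb at 5 and 0.228 kb when scaled to each library's own H3K27ac coverage. Leaving out each library in turn gave −2.19 to 0.651 kb for added UTX minus EV, −3.98 to 2.27 kb for WT minus EV, −4.86 to 3.66 kb for HEAA minus EV and −4.52 to 4.01 kb for WT minus HEAA. With the replicate number as a block, the differences were the same and exact permutation p was 0.667 for added UTX against EV (−0.727 kb) and 1 for the other 3. The labels do not say that a number marks a shared culture, and the 2 numbers are too few to check it.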

Other observations

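A stretch inside the window differed in H3K4me1 between lines and was picked after its values were seen. In WT the longest part of the window without H3K4me1 was chr5:140499624-140782578, 283 kb long. The stretch was defined by the absence of WT regions, so WT as the lowest line there follows from the choice. EV had 8 H3K4me1 regions in it, covering 3477 bases at folds of 2.40 to 3.23, and HEAA had 6, covering 1786 bases at folds of 2.30 to 2.94. Their −log10 q was low, 1.31 to 3.29 in EV and 1.21 to 2.65 in HEAA. WT was not empty of other marks there. H3K27ac covered 4039 bases of it in WT replicate 1 and 1085 in replicate 2, against 2381 and 2416 in EV and 2941 and 898 in HEAA. H3K27me3 covered 8232 bases in EV, 6657 in WT and 8608 in HEAA, in 12, 13 and 13 regions. With 1 H3K4me1 library per line this difference was not tested.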
